A study of Mus musculus with 15 samples.

Results

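The retinoblastoma (Rb) pocket proteins and the E2F transcription factors were followed in mouse embryonic fibroblasts that had lost histone deacetylase Hdac1, Hdac2 or both. The 10 genes were Rb1, Rbl1 and Rbl2 for the pocket proteins and E2f1, E2f2, E2f3, E2f4, E2f5, E2f7 and E2f8 for the E2F factors, out of 18193 gene symbols on the array. They were chosen by name, and each gene was represented by the probe set (the group of array oligonucleotides that reports 1 transcript) with the highest mean over the 15 arrays, among probe sets annotated to that symbol alone. All 10 genes passed the filter on dim probe sets and were tested among 13375 genes. Of their 22 probe sets 20 passed, the exceptions being 2 of the 4 probe sets of Rbl1.

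Pocket proteins bind E2F factors and keep the genes that E2F controls repressed, in part by recruiting histone deacetylases. Cyclin-dependent kinases phosphorylate the pocket proteins in late G1 and release E2F, which then drives the genes of DNA replication. Rb, the product of Rb1, mainly holds the activators E2f1, E2f2 and E2f3, whereas p107 (Rbl1) and p130 (Rbl2) pair with E2f4 and E2f5. With the MuvB proteins, p107 or p130 forms the DREAM complex, which represses cell cycle genes in resting cells. E2f7 and E2f8 are atypical repressors that bind DNA without a DP partner or a pocket protein. Several of these genes, among them Rbl1, E2f1, E2f7 and E2f8, are themselves known E2F targets, and p130 is known to be abundant in resting cells and p107 in cycling cells.

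The study measured RNA in primary male fibroblasts in 5 groups of 3 arrays. Cells whose Hdac1 alleles are floxed (HDAC1 fl/fl) carried a retrovirus for Cre-ERT2, a recombinase that tamoxifen switches on, and a retrovirus for a hairpin micro-RNA, which the sample titles call an siRNA. The combined-loss cells (KO/Kd) had the micro-RNA against Hdac2 and received tamoxifen at 200 nM. The KO cells had the scrambled micro-RNA and tamoxifen, the Kd cells had the micro-RNA against Hdac2 and ethanol, and the control cells had the scrambled micro-RNA and ethanol. The fifth group, HDAC1 +/+ cells with tamoxifen, had intact Hdac1, and the sources used here do not say which viruses they carried. The labels do not state whether the replicate arrays were separate cultures, so a p-value here may reflect technical spread alone. Tamoxifen, Cre activity and the deletion were given together. Their effects cannot be told apart in KO against control, in KO/Kd against Kd or in KO/Kd against control. The last of these also differs in the micro-RNA against Hdac2. The +/+ cells also differed from the control in allele and perhaps in virus, which cannot be told apart from tamoxifen there.

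Hdac1 intensity was 106 to 203 in KO/Kd cells and 144 to 183 in KO cells, against 3757 to 3966 in Kd cells, 4191 to 4806 in +/+ cells and 3498 to 3673 in control cells. Hdac2 intensity was 1013 to 1031 in KO/Kd cells and 908 to 1028 in Kd cells, against 6492 to 7702 in KO cells, 7471 to 7693 in +/+ cells and 6536 to 7354 in control cells. Both targeted genes thus followed the labels, although the sources used here do not say whether the Hdac1 probe set lies in the deleted part. All 8 fibroblast markers were detected, with a summed intensity of 192986 to 204285 in KO/Kd cells, 155358 to 179273 in KO cells, 172588 to 177584 in Kd cells, 171641 to 181087 in +/+ cells and 161308 to 168009 in control cells. No marker of any list was at 0. Of the markers of other cells, 4 of 6 macrophage, 4 of 6 epithelial, 3 of 4 muscle and 3 of 4 neural ones passed the filter. They included Csf1r, Cd14, Cd68 and Adgre1 of macrophages and Epcam, Cdh1, Krt5 and Krt8 of epithelium. Ptprc, Itgam, Pecam1, Cdh5, Tek, Tie1, Krt14, Krt18, Myod1 and Gfap were below the filter. The summed intensity of the 5 endothelial markers was 123 to 163 in KO/Kd cells, 70.2 to 73.3 in KO cells, 63.8 to 70.1 in Kd cells and 70.0 to 84.7 in +/+ cells, against 67.4 to 75.8 in control cells, and Kdr alone passed the filter. The sum of the 4 muscle markers, of which Acta1 was the brightest, was 252 to 392 in KO/Kd cells, 2864 to 3490 in KO cells, 1474 to 1565 in Kd cells and 1202 to 1246 in +/+ cells, against 1864 to 2286 in control cells. Acta1 averaged 265 in KO/Kd cells and 2051 in control cells, whereas Myog (35.2 in KO/Kd cells, 18.7 in control cells) and Des (29.0 in KO/Kd cells, 20.5 in control cells) were higher. The sum of the 4 neural markers was 2361 to 2517 in KO/Kd cells, 878 to 1312 in KO cells, 1574 to 1771 in Kd cells and 1039.7 to 1214 in +/+ cells, against 990.2 to 1126 in control cells. Within that sum Sox2 averaged 502 in +/+ cells and 31.7 in control cells, whereas Nes averaged 230 and 489 and Tubb3 367 and 528. Thy1 of the fibroblast markers averaged 1242 in +/+ cells and 280 in control cells. The sum of the 6 macrophage markers was 350.0 to 526 in KO/Kd cells, 403 to 614 in KO cells, 358 to 407 in Kd cells and 304 to 420.0 in +/+ cells, against 358 to 386 in control cells. The sum of the 6 epithelial markers was 142 to 155 in KO/Kd cells, 144 to 161 in KO cells, 134 to 152 in Kd cells and 134 to 151 in +/+ cells, against 148 to 163 in control cells. The part of these differences in the results for the pocket proteins and E2F factors was not tested.

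RefSeq sequence around the start sites was available for 7 of the 10 genes, as 9 windows on GRCm38.p6 that ran from 250 bases before the start to 50 bases after it. An E2F word, any of TTTCCCGC, TTTCGCGC, TTTGCCGC and TTTGGCGC on either strand, occurred in 2.26% of all 32851 windows of that length. The cell cycle homology region (CHR) word TTTGAA, which the MuvB part of DREAM binds, occurred on either strand in 17.9% of them. No match overlapped another in the windows shown. The windows of Rbl1, E2f7, E2f8 and Rbl2 are given because these genes differed most between the groups, and that of E2f3 because it holds both words while the gene did not pass the test in KO/Kd against control. Each window is written 5′ to 3′ on the strand of its gene, with the matches in capitals.
Rbl1, chr2:157204485-157204784, minus strand: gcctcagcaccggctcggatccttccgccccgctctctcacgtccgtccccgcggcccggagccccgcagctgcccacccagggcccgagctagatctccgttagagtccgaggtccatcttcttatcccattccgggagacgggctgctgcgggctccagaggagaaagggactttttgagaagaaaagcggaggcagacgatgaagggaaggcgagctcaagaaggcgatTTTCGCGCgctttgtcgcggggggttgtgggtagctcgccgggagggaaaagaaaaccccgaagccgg
E2f7, chr10:110745189-110745488, plus strand: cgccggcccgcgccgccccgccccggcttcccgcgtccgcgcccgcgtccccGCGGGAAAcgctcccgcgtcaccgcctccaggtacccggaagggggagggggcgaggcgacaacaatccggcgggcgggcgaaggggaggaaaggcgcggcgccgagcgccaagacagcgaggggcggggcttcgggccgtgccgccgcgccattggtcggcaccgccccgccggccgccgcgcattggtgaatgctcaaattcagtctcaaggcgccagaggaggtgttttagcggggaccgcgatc
E2f8, chr7:48881547-48881846, minus strand: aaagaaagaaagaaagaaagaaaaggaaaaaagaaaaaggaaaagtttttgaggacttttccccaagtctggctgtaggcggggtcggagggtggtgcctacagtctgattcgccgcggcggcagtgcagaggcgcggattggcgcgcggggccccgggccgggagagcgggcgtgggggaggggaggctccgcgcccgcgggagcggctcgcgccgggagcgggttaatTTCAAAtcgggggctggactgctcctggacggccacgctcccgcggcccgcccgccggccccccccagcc
Rbl2, chr8:91069807-91070106, plus strand: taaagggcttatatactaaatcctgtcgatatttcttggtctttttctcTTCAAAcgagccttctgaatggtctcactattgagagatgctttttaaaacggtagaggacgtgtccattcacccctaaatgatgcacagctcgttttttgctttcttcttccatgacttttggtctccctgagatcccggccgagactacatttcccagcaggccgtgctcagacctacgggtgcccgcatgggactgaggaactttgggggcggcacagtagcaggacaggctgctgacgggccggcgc
E2f3, chr13:29986014-29986313, minus strand: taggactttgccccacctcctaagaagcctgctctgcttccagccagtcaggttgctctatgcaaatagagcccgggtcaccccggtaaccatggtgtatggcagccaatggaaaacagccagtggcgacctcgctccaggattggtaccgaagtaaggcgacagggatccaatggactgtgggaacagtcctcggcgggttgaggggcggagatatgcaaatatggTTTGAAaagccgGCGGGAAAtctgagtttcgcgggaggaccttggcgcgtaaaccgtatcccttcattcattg

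The Rbl1 window holds TTTCGCGC on the strand of the gene from -18 to -11, counted from the start site. The E2f7 window holds TTTCCCGC on the opposite strand from -198 to -191. The E2f8 window, whose start site lies 477 bases inside the annotated 5′ end of the gene, has no E2F word and holds the CHR word on the opposite strand from -20 to -15. The Rbl2 window has no E2F word and holds the CHR word on the opposite strand from -201 to -196. The E2f3 window holds TTTCCCGC on the opposite strand from -11 to -4 and the CHR word from -23 to -18. Among the windows not shown, 1 window of E2f2 holds TTTGGCGC from 40 to 47 after the start, and the other holds the CHR word from -31 to -26. The window of E2f1, 466 bases inside the gene's 5′ end, and the second window of E2f3 hold neither word. A match describes these letters only and is not a binding site.

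In KO/Kd cells against control the 3 pocket protein genes moved apart: Rbl1 fell, whereas Rb1 and Rbl2 rose. Rbl1, the gene of p107, had an intensity of 159.8, 186 and 156 in KO/Kd cells, against 1491, 1525 and 1455 in control cells. Rbl2, the gene of p130, had 3344, 3451 and 3482 in KO/Kd cells, against 995, 956 and 752 in control cells. Rb1 had 2324, 2189 and 2397 in KO/Kd cells, against 840.1, 974 and 845 in control cells. The KO/Kd arrays lay outside the range of the control arrays for all 3 genes, Rbl1 below and the other two above. In bulk RNA of this kind, fewer cells of a type and less RNA per cell cannot be told apart.

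On the log2(intensity + 16) scale used for every fold change here, Rbl1 fell by 3.04 ± 0.07 (SE, n = 3 arrays in each group, limma adjusted p = 6.41e-15). Among the 13375 genes it ranked 18 from the lowest, with E2f7 at 48 and E2f8 at 102. Rbl2 rose by 1.92 ± 0.10 (limma adjusted p = 4.73e-11) and Rb1 by 1.36 ± 0.09 (limma adjusted p = 9.86e-10). The group means for Rbl1 were 167 ± 16.5 in KO/Kd cells and 1490.5 ± 35.3 in control cells (SD, n = 3 each). Those for Rbl2 were 3426 ± 72.4 in KO/Kd cells and 901 ± 131 in control cells, and those for Rb1 were 2303 ± 106 in KO/Kd cells and 886 ± 76.1 in control cells.

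**Figure D1:**
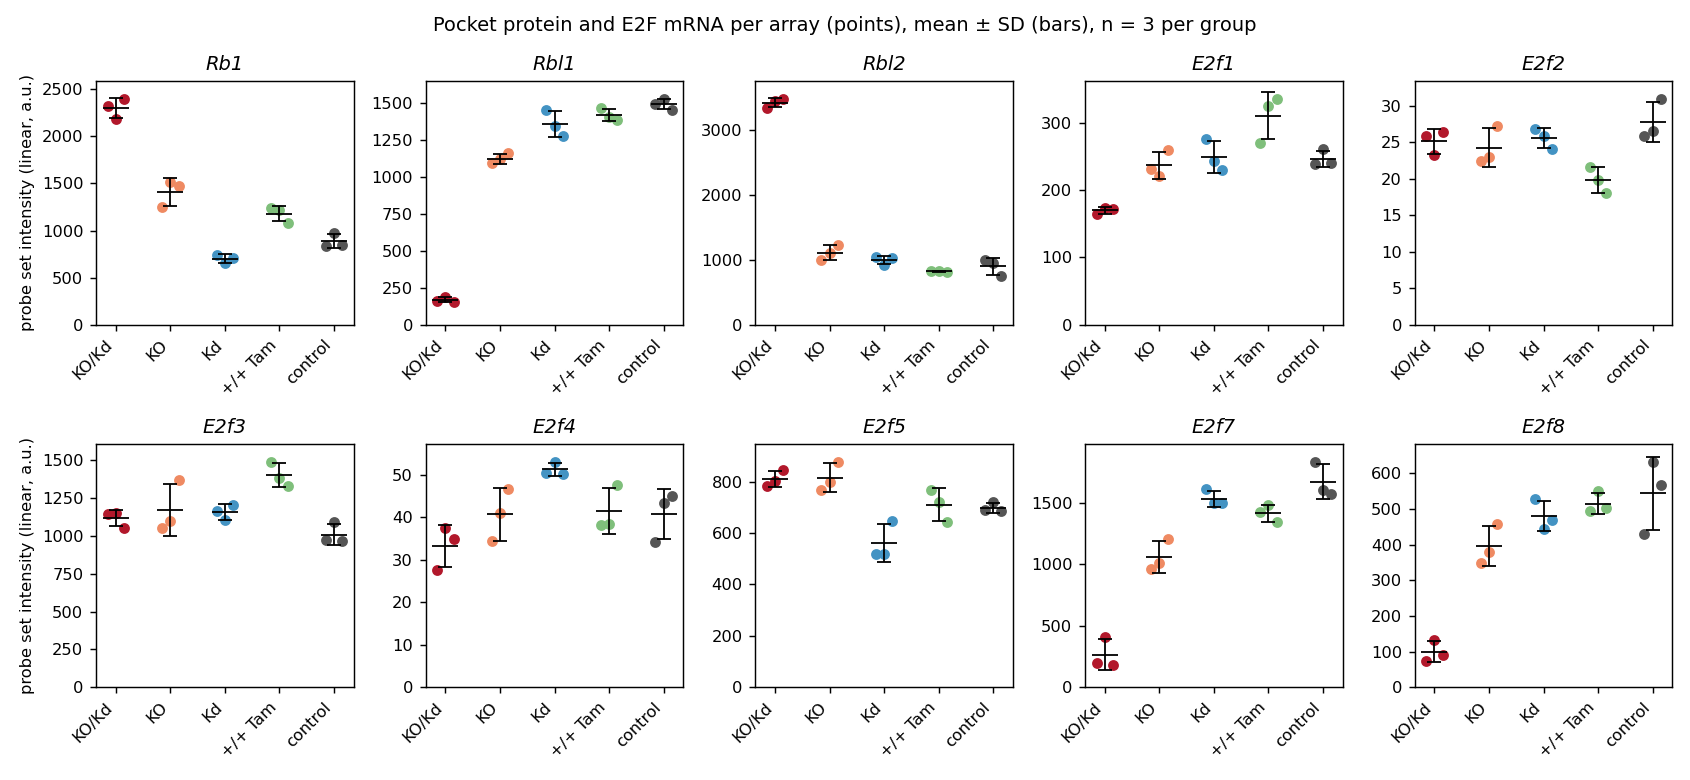
Intensity (linear scale, arbitrary units, axes starting at 0) of the 10 genes on each of the 15 arrays, 1 panel per gene with its own axis; points are arrays, lines and bars are the mean ± SD of 3 arrays, and the groups run from KO/Kd on the left to control on the right. Rbl1, E2f7 and E2f8 stood lowest and Rbl2 and Rb1 highest in KO/Kd cells.

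The atypical repressors E2f7 and E2f8 fell together with Rbl1. E2f7 had an intensity of 199, 411 and 185 in KO/Kd cells, against 1836, 1609 and 1573 in control cells. E2f8 had 74.5, 132 and 91.9 in KO/Kd cells, against 431, 633 and 567 in control cells. Replicate 2 of the KO/Kd cells was the highest of its group for E2f7 and E2f8, and still below every control array. E2f7 fell by 2.67 ± 0.19 and E2f8 by 2.29 ± 0.16 on the log2 scale (SE, n = 3 each, limma adjusted p = 3.82e-09 and 2.13e-09). The standard error of E2f7 was the largest of the 10 genes.

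The activator E2f1, a driver of S phase genes, fell too, with 164, 174 and 172 in KO/Kd cells against 239, 260.3 and 241 in control cells, a change of -0.50 ± 0.09 on the log2 scale (SE, n = 3 each, limma adjusted p = 0.000109). For the other activators the groups overlapped. E2f3 had 1143, 1148 and 1054 in KO/Kd cells against 970, 1088 and 963 in control cells, a difference of 0.15 with a 95% interval from -0.05 to 0.34 (limma adjusted p = 0.172). With arrays centred on their median it was -0.18 (limma adjusted p = 0.0226). E2f2 had 25.8, 23.2 and 26.4 in KO/Kd cells against 25.9, 26.5 and 30.9 in control cells, a difference of -0.09 with an interval from -0.24 to 0.06 (limma adjusted p = 0.291). These intervals do not show that E2f2 or E2f3 was unchanged. The 40th percentile of the arrays was 18.8 to 22.5, so E2f2 was close to the filter and its changes are understated.

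Of the factors that pair with p107 and p130, E2f4 did not pass and E2f5 passed narrowly. E2f4 had 27.7, 37.3 and 34.7 in KO/Kd cells against 34.1, 43.2 and 44.98 in control cells, a difference of -0.20 with an interval from -0.42 to 0.01 (limma adjusted p = 0.0871). E2f5 had 784, 803 and 846 in KO/Kd cells against 688, 720.4 and 686 in control cells, and rose by 0.21 ± 0.09 (SE, n = 3 each, limma adjusted p = 0.0482). The call for E2f5 held in 10 of 26 alternatives. It was lost without any 1 of the control or KO/Kd arrays, without +/+ replicate 2 or KO replicate 2, and under 8 other settings. Its difference was -0.01 with quantile normalization and -0.11 with arrays centred on their median.

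In all, 7 of the 10 genes passed the threshold in KO/Kd against control, 3 higher and 4 lower, where 65.5% of all tested genes passed, 46.2% higher and 19.3% lower. The groups did not overlap for 7 of the 10, against 71.4% of all genes, so the count of calls was near the background. The median over the 10 was -0.15 and that over all genes 0.16. With a further limit of a 2-fold change, added after the values had been seen, 5 of the 10 passed, 2 higher and 3 lower, against 16.7% of all genes, 12.6% higher and 4.13% lower. Under quantile normalization 2 of the 10 were higher and 6 lower, and under centring 2 and 7, with the median over all genes moving to -0.02 and -0.16. Of all genes, 32.3% were called higher and 33.4% lower under quantile normalization, and 27.3% and 47.9% under centring. Rbl1, Rbl2, Rb1, E2f1, E2f7 and E2f8 kept their direction and their call in all 26 alternatives.

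Hdac1 deletion alone, KO against control, gave smaller values, with Rb1 and Rbl2 higher and Rbl1 and E2f7 lower. Rb1 had an intensity of 1245, 1519 and 1471 in KO cells against 840.1, 974 and 845 in control cells, and rose by 0.66 ± 0.09 on the log2 scale (SE, n = 3 each, limma adjusted p = 6.65e-05). The Rb1 call held in 26 of 26 alternatives, with a lowest value of 0.33. A second, dim Rb1 probe set did not show the rise, at 19.0 in KO cells and 18.8 in control cells. Rbl1 had 1091, 1117 and 1158 in KO cells against 1491, 1525 and 1455 in control cells, and fell by 0.41 ± 0.07 (limma adjusted p = 0.000732). E2f7 had 967, 1009 and 1206 in KO cells against 1836, 1609 and 1573 in control cells, and fell by 0.65 ± 0.19 (limma adjusted p = 0.0225). The E2f7 call held in 22 of 26 alternatives, and was lost with the trended robust prior and without control replicate 1, KO replicate 1 or KO replicate 2, at adjusted p values of up to 0.0801. For Rb1, Rbl1 and E2f7 every KO array lay outside the range of the control arrays. Rbl2 rose by 0.30 ± 0.10 (limma adjusted p = 0.0337), with 996, 1099.6 and 1228 in KO cells against 995, 956 and 752 in control cells. The lowest KO array and the highest control array were nearly level, and the call held in 19 of 26 alternatives. Arrays whose removal ended it were control replicate 3, KO replicate 2 and KO replicate 3, and the lowest value over the alternatives was 0.16.

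E2f8 had 349.8, 379 and 459 in KO cells against 431, 633 and 567 in control cells, a difference of -0.43 ± 0.16 that missed the threshold (SE, n = 3 each, limma adjusted p = 0.0578). It passed in 11 of the 26 alternatives. E2f1 differed by -0.06, E2f2 by -0.12, E2f3 by 0.21, E2f4 by 0.00 and E2f5 by 0.22, and none of them passed. In this comparison 4 of the 10 genes passed, 2 higher and 2 lower, against 24.2% of all genes, 19.6% higher and 4.66% lower. The groups did not overlap for 5 of the 10, against 35% of all genes, and 0 of the 10 reached 2-fold. Without KO replicate 2 the count of calls was 2.

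Hdac2 knockdown alone, Kd against control, gave no call for Rbl1, E2f7 or E2f8. Rbl1 had 1452, 1346 and 1277 in Kd cells against 1491, 1525 and 1455 in control cells, a difference of -0.13 with an interval from -0.29 to 0.02 (limma adjusted p = 0.291). E2f7 had 1612, 1499 and 1499.8 in Kd cells against 1836, 1609 and 1573 in control cells, a difference of -0.12 with an interval from -0.53 to 0.29 (limma adjusted p = 0.793). E2f8 had 527, 445 and 468 in Kd cells, a difference of -0.16 from control with an interval from -0.50 to 0.18 (limma adjusted p = 0.627). The genes that passed were Rb1 and E2f5, both lower. Rb1 had 741, 652 and 712 in Kd cells against 840.1, 974 and 845 in control cells, and fell by 0.33 ± 0.09 (SE, n = 3 each, limma adjusted p = 0.0240). E2f5, which works with p130 as a repressor, had 519, 518 and 647 in Kd cells against 688, 720.4 and 686 in control cells, and fell by 0.31 ± 0.09 (limma adjusted p = 0.0326).

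The count of 2 in 10, 0 higher and 2 lower, stood against 10.6% of all genes, 7.55% higher and 3.04% lower. The groups did not overlap for 5 of the 10, against 34.6% of all genes. The count was 0 without Kd replicate 2 and 0 without control replicate 2, and 1 without each of the other Kd and control arrays. A second, dimmer probe set of Rb1 ran the other way in Kd cells, at 33.0 against 18.8 in control cells. With the mean over the probe sets of each gene, the Rb1 difference was 0.08.

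**Figure D2:**
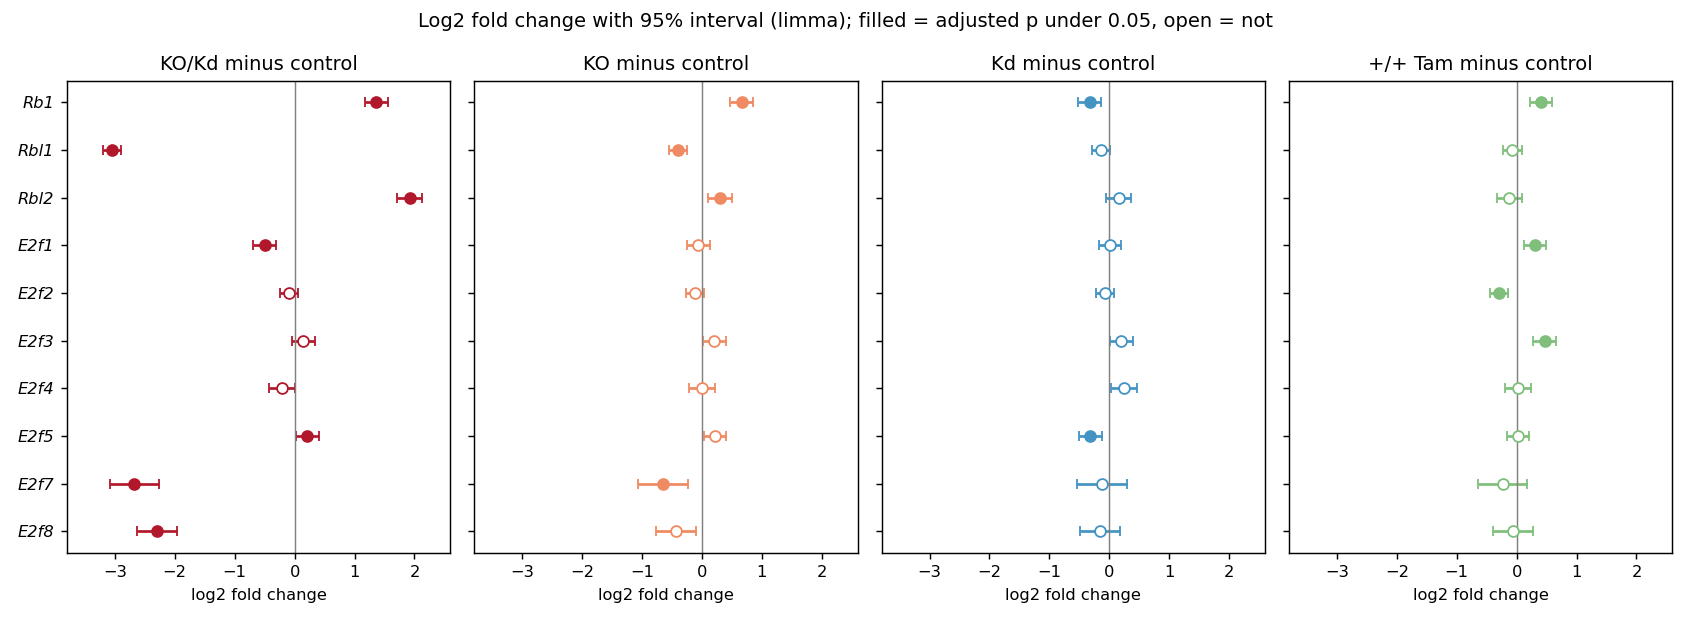
Log2 fold change (log2(intensity + 16) scale, against control) of the 10 genes in KO/Kd, KO, Kd and +/+ cells, 1 panel each, with bars for the 95% interval from limma and a line at 0 for no difference; filled points passed the adjusted p threshold and open points did not. Rbl1, E2f7 and E2f8 reached -3.04, -2.67 and -2.29 in KO/Kd cells, while their values in Kd cells lay between -0.16 and -0.12. All the comparisons share the control arrays.

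Hdac1 deletion with tamoxifen went with larger changes of Rbl1, E2f7, E2f8, Rbl2, Rb1 and E2f1 where Hdac2 was knocked down. In knockdown cells, KO/Kd against Kd, Rbl1 was at -2.91, E2f7 at -2.55 and E2f8 at -2.13 on the log2 scale, whereas in cells with the scrambled micro-RNA, KO against control, the values were -0.41, -0.65 and -0.43. The difference between those effects, tested as the interaction of deletion and knockdown, was -2.50 ± 0.10 for Rbl1 (SE, limma adjusted p = 2.84e-11). It was -1.90 ± 0.27 for E2f7 and -1.70 ± 0.22 for E2f8 (limma adjusted p = 3.51e-05 and 1.43e-05). Rbl2 and Rb1 rose more in knockdown cells too, with an interaction of 1.47 ± 0.14 for Rbl2 and 1.03 ± 0.13 for Rb1 (limma adjusted p = 3.74e-07 and 5.87e-06). E2f1 had an interaction of -0.45 ± 0.13 (limma adjusted p = 0.00804). Tamoxifen and Cre were present in the deleted cells of both backgrounds, and no group had tamoxifen and the Hdac2 knockdown with intact Hdac1. An effect of tamoxifen or Cre that depends on the knockdown thus cannot be told apart from that of the deletion.

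E2f4, dim on this array, was called in the interaction at -0.45 ± 0.14 (limma adjusted p = 0.0183), with 27.7, 37.3 and 34.7 in KO/Kd cells, 34.3, 40.9 and 46.7 in KO cells, 50.4, 52.99 and 50.2 in Kd cells, and 34.1, 43.2 and 44.98 in control cells. Its Kd arrays lay above all others, and the other groups overlapped. The call was lost without control replicate 1 or KO/Kd replicate 1, at adjusted p values of up to 0.0544. For E2f5 the interaction was 0.31 with an interval from 0.04 to 0.58 (limma adjusted p = 0.0599), for E2f3 -0.26 with an interval from -0.54 to 0.01 (limma adjusted p = 0.116), and for E2f2 0.11 with an interval from -0.11 to 0.32 (limma adjusted p = 0.435). The interaction thus passed for 7 of the 10 genes, 2 higher and 5 lower, against 42.9% of all genes, 25.8% higher and 17.2% lower. Under quantile normalization the split of the 10 was 2 higher and 6 lower, against 24.1% and 25.8% of all genes.

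In KO/Kd against Kd the calls numbered 8 of 10, 3 higher and 5 lower, where 63.4% of all genes passed, 42.9% higher and 20.5% lower. The groups did not overlap for 8 of 10, against 70.9% of all genes. The calls included E2f5, with 784, 803 and 846 in KO/Kd cells against 519, 518 and 647 in Kd cells, a rise of 0.53 (limma adjusted p = 7.72e-05). In KO/Kd against KO, where both groups had tamoxifen and the groups differ in the micro-RNA alone, 6 of 10 passed, 2 higher and 4 lower, against 56.8% of all genes, 36.2% higher and 20.6% lower, and the groups did not overlap for 6 of 10, against 57.6% of all genes. There Rbl1 was at -2.64, E2f7 at -2.02, E2f8 at -1.86 and E2f1 at -0.44, and Rbl2 at 1.62 and Rb1 at 0.70 (limma adjusted p of 0.000443 for E2f1 and smaller for the others). Under quantile normalization 7 of the 10 were lower in KO/Kd against Kd, and 6 in KO/Kd against KO. The share of all genes lower under that scaling was 32.7% and 31.2%.

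**Figure D3:**
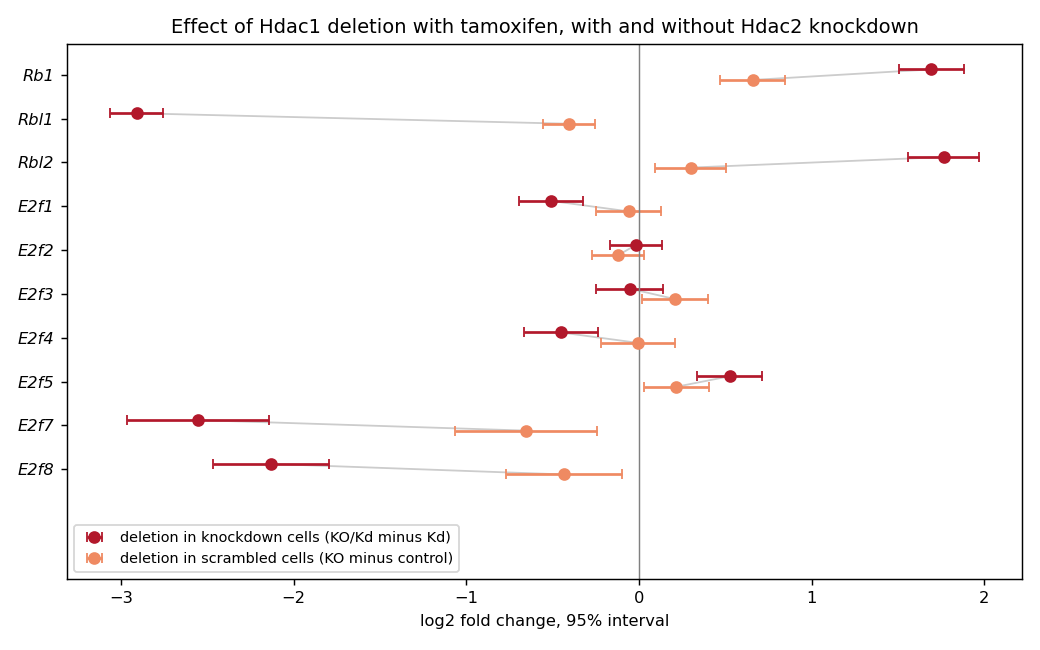
Effect of Hdac1 deletion with tamoxifen (log2 fold change) on each of the 10 genes in Hdac2 knockdown cells (KO/Kd against Kd) and in cells with the scrambled micro-RNA (KO against control), with bars for the 95% interval and a grey line that joins the pair. For Rbl1 the values were -2.91 and -0.41, and for Rbl2 1.76 and 0.30.

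The +/+ cells with tamoxifen differed from control in Rb1, E2f1, E2f2 and E2f3. E2f3 had 1488, 1382 and 1329 in +/+ cells against 970, 1088 and 963 in control cells, and rose by 0.47 (limma adjusted p = 0.00111). Rb1 had 1236, 1215 and 1085 in +/+ cells against 840.1, 974 and 845 in control cells, and rose by 0.41 (limma adjusted p = 0.00274). E2f1 had 270.3, 325 and 335 in +/+ cells against 239, 260.3 and 241 in control cells, and rose by 0.31 (limma adjusted p = 0.0161). For E2f3, Rb1 and E2f1 the +/+ arrays lay above all control arrays. The E2f1 call held in 20 of 26 alternatives, with a lowest value of 0.18. It was lost with both other scalings and without +/+ replicate 2 or 3 or control replicate 1 or 3. E2f2 fell by 0.29, with 21.6, 19.8 and 18.0 in +/+ cells against 25.9, 26.5 and 30.9 in control cells (limma adjusted p = 0.00612). The Rb1 and E2f2 calls were lost with the mean of probe sets, at 0.21 and -0.13, and in no other alternative, while the E2f3 call held in all. Rbl1 at -0.07, Rbl2 at -0.12, E2f7 at -0.23 and E2f8 at -0.06 did not pass. The calls were 4 of 10, 3 higher and 1 lower, against 28.5% of all genes, 21.5% higher and 6.94% lower, and the groups did not overlap for 5 of 10, against 47.7% of all genes.

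Against the +/+ cells instead of the control, the KO/Kd cells still had lower Rbl1 (-2.97), E2f7 (-2.44) and E2f8 (-2.23) and higher Rbl2 (2.04) and Rb1 (0.96). Here 8 of 10 passed, 3 higher and 5 lower, against 61.8% of all genes, 38.3% higher and 23.5% lower, and the groups did not overlap for 10 of 10, against 67.7% of all genes. E2f3 at -0.32 and E2f2 at 0.20 were among those called, where their values against control were 0.15 and -0.09 and did not pass. The E2f3 call held in 26 of 26 alternatives and the E2f2 call in 19 of 25, with a lowest E2f2 value of 0.0044. The E2f2 call was lost with both other scalings, with the mean of probe sets, and without +/+ replicate 3 or KO/Kd replicate 1 or 3. KO against +/+ gave 5 calls of 10, 2 higher and 3 lower, against 24.1% of all genes, 12.8% higher and 11.3% lower, and the groups did not overlap for 8 of 10, against 33.3% of all genes. These were Rbl2 at 0.42, Rb1 at 0.25, Rbl1 at -0.33, E2f1 at -0.37 and E2f3 at -0.26 (limma adjusted p between 0.00281 and 0.0479). The Rb1 and E2f3 calls were lost in most of the alternatives, passing in 9 of 26, and E2f7 at -0.42 did not pass (limma adjusted p = 0.138). The Rb1 rise in KO cells was 0.66 against control and 0.25 against +/+ cells, and the values share the KO arrays.

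Ordered by mean, Rb1 ran from KO/Kd through KO, +/+ and control to Kd with no overlap between neighbours, and its highest mean was 3.28 times its lowest. For Rbl1 the KO/Kd and KO cells each stood apart at the low end, the control, +/+ and Kd cells overlapped with their neighbours, and the highest mean was 8.91 times the lowest. For Rbl2, E2f1 and E2f8 the KO/Kd cells alone stood apart from their neighbour. For E2f7 only the control and Kd cells overlapped, and the highest mean was 6.31 times the lowest. The ratio was 5.47 for E2f8, 4.18 for Rbl2, 1.83 for E2f1, and between 1.39 and 1.54 for E2f2, E2f3, E2f4 and E2f5. For E2f4 the Kd cells alone stood apart, at the high end, for E2f2 the +/+ cells at the low end, and for E2f3 every pair of neighbours overlapped. For E2f5 the Kd cells stood apart at the low end, and the KO and KO/Kd cells overlapped each other above the rest.

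Further probe sets past the filter ran in the same direction in KO/Kd cells for Rbl1, Rbl2, Rb1, E2f2 and E2f8. They were mixed for E2f1 and E2f5 and ran the other way for E2f3. The second Rbl2 probe set had a mean intensity of 1524 in KO/Kd cells against 304 in control cells. The second Rb1 probe set had 132 ± 40.1 in KO/Kd cells against 18.8 in control cells, with 33.0 in Kd cells and about 19 in the KO and +/+ cells. The second Rbl1 probe set had 21.1 in KO/Kd cells against 127 in control cells, so it fell to the level of the filter. The second E2f8 probe set had 17.7 in KO/Kd cells against 31.0 in control cells. For E2f1 a second probe set differed by -0.21 on the log2 scale and another, dim one by 0.08, at 20.4 in KO/Kd cells against 18.4 in control cells. The further E2f5 probe sets differed by 0.19 and -0.06, where the one used differed by 0.21. The second E2f3 probe set differed by -0.06, where the one used differed by 0.15, and the second of E2f2 by -0.03. The 2 Rbl1 probe sets below the filter differed by 0.13 and 0.05. Levels of different probe sets cannot be set against each other.

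**Figure D4:**
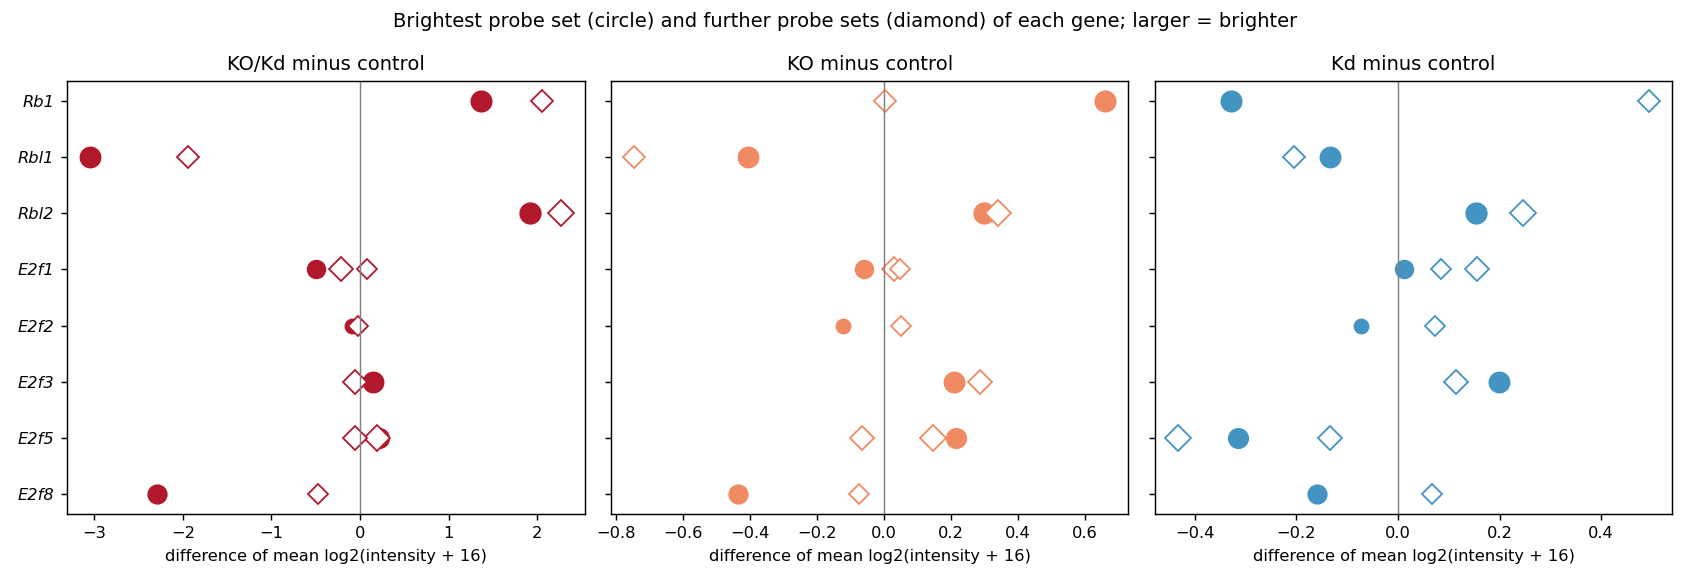
Log2 difference from control for the 8 genes with more than 1 probe set past the filter, in KO/Kd, KO and Kd cells, 1 panel per comparison with its own horizontal axis; filled circles mark the probe set used for the gene, open diamonds the others, and larger symbols brighter probe sets. The second probe sets of Rbl1 and Rbl2 lay at -1.94 and 2.27 in KO/Kd cells.

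Across the 15 arrays, Rbl1 and E2f8 had a correlation of 0.982 on the log2 scale, E2f7 and E2f8 of 0.978, and Rbl1 and E2f7 of 0.975, while Rb1 and Rbl2 had 0.808. The arrays share the 5 groups, and the KO/Kd arrays carry most of the spread, so these values describe the group pattern. The genes whose pattern was most like that of E2f7, by Pearson's correlation over the same arrays, were Ccna2 (0.998), Cenpa (0.998) and Ncapg (0.997), which act in S phase, at the centromere and in chromosome condensation. For E2f8 they were Clspn (0.994), Cenpi (0.992) and Kntc1 (0.992), and for Rbl1 Kntc1 (0.994), Tfrc (0.994) and Dlgap5 (0.994). For Rbl2 they were Afap1l2 (0.993), Hsbp1 (0.992) and Fkbp7 (0.992), and for Rb1 Spag9 (0.991), Clba1 (0.988) and Gnptab (0.988). For E2f1 they were Rabl3 (0.965), Dot1l (0.956) and Szrd1 (0.948).

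Listed targets of E2F and DREAM fell in KO/Kd cells, as did Rbl1, E2f7 and E2f8. All 30 tested E2F targets of the G1 to S transition, of 32 listed, fell in KO/Kd cells against control, where 19.3% of all genes fell, with a median of -1.89 on the log2 scale where the median over all genes was 0.16. Tk1 (thymidine kinase) was at -3.13, the replication factors Mcm10 and Cdc45 at -2.86 and -2.85, the polymerase Pole at -2.74, and Tyms nearest to 0 at -0.32. All 19 tested late cell cycle genes, of 20 listed, fell too, with a median of -2.54, among them the kinases Aurka at -2.91 and Plk1 at -2.87 and the factor Foxm1 at -2.89. In KO against control 21 of the 30 and 8 of the 19 fell, where 4.66% of all genes fell, with medians of -0.39 and -0.49, led by Tk1 at -0.71 and Cdc25c at -0.85. In Kd against control 0 of 30 and 0 of 19 passed, with medians of -0.10 and -0.07. Against +/+ cells, 6 of the 30 and 4 of the 19 were lower in KO cells, where 11.3% of all genes were lower, with medians of -0.17 and -0.33. The 6 was 3 without +/+ replicate 1, 2 without +/+ replicate 2 or 3 or KO replicate 1 or 2, and 12 without KO/Kd replicate 2. The 4 was 2 without +/+ replicate 2, 1 without KO replicate 1 or 2, 11 without KO/Kd replicate 2 and 7 without KO/Kd replicate 3. The +/+ cells themselves had 6 of the 30 and 1 of the 19 lower than control, where 6.94% of all genes were lower. That 6 was 3 without +/+ replicate 2 or 3 or control replicate 1 or 2, and 10 without KO/Kd replicate 2. That 1 was 0 without +/+ replicate 1 or control replicate 1 and 4 without KO/Kd replicate 2. The interaction passed for 29 of the 30, Tyms being the exception at -0.12, and for 19 of 19. All of these calls were lower, where 17.2% of all genes were called lower. Without KO replicate 2 the count of 21 was 11, without KO replicate 1 it was 12 and without control replicate 1 or 2 it was 13. Without KO replicate 1 or control replicate 1 the count of 8 was 5, and without KO/Kd replicate 2 it was 18.

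**Figure D5:**
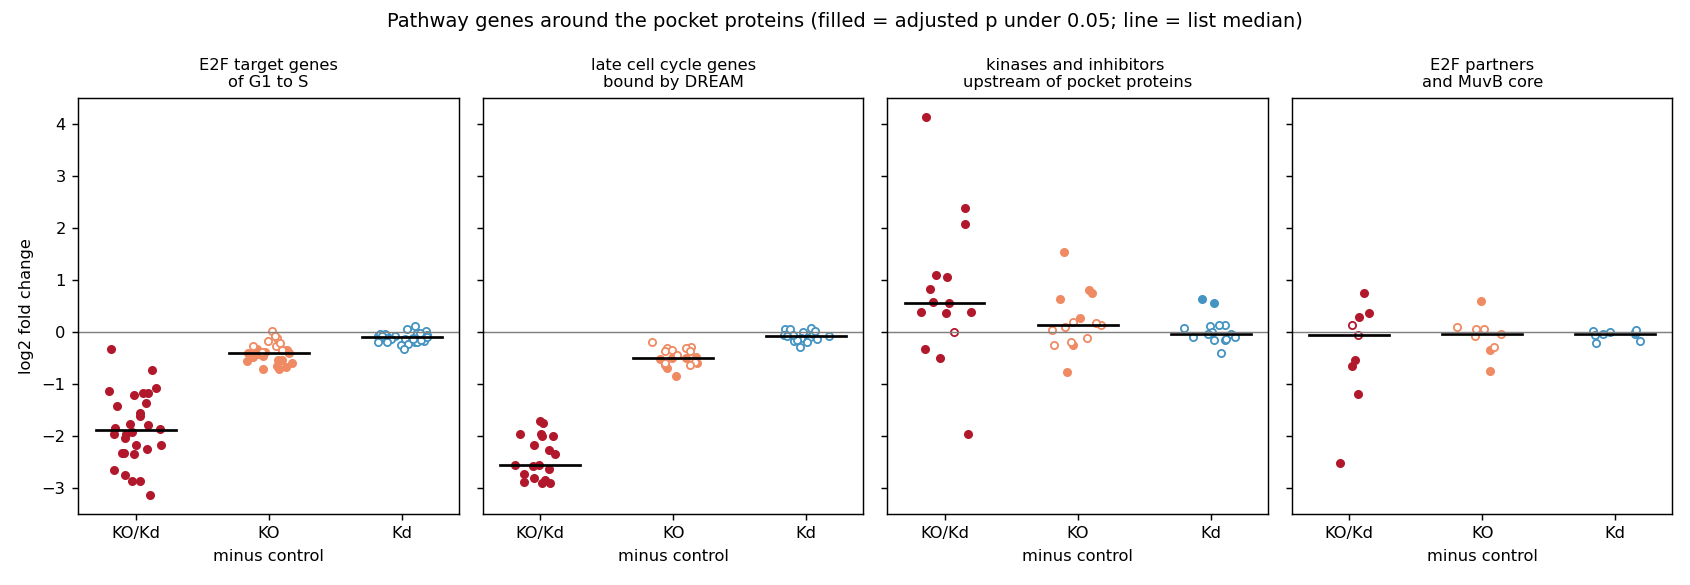
Log2 fold change against control of each tested gene in 4 lists of the pathway, for KO/Kd, KO and Kd cells; each point is a gene, filled where it passed the adjusted p threshold, and each line is the list's median. The E2F targets and late cell cycle genes lie at medians of -1.89 and -2.54 in KO/Kd cells, and the kinases and inhibitors at 0.57.

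Upstream of the pocket proteins, the kinase inhibitors Cdkn1c, Cdkn2b and Cdkn1a rose and cyclin E2 (Ccne2) fell in KO/Kd cells. Of 15 tested kinases, cyclins and inhibitors, 11 rose and 3 fell, with a median of 0.57, where 46.2% of all genes rose and 19.3% fell. Cdkn2a, counted among the 11, was uneven, at 124 ± 134 in KO/Kd cells and 35.1 ± 13.1 in control cells (SD, n = 3 each). Its call was narrow (limma adjusted p = 0.0416), and it did not pass in KO/Kd against Kd, KO or +/+ cells. The inhibitor Cdkn1c (p57) rose by 4.14, Cdkn2b (p15) by 2.39 and Cdkn1a (p21) by 2.09. Cdkn1a averaged 12006 ± 465 in KO/Kd cells and 2811 ± 98.5 in control cells (SD, n = 3 each). Ccne2, Cdk4 and Cdk2 were the 3 that fell, at -1.95, -0.50 and -0.31, whereas Ccnd2 rose by 1.11. The other cyclin E gene, Ccne1, also a known E2F target, rose by 0.37 (limma adjusted p = 0.00199). Ccne1 was at 0.37 in +/+ cells against control too (limma adjusted p = 0.00625). In KO/Kd against +/+ cells it was at -0.001 (limma adjusted p = 0.993). In KO cells 5 rose and 2 fell, where 19.6% of all genes rose and 4.66% fell, with Cdkn1a at 1.55 and Ccnd2 at 0.76 among the higher and Cdkn2c at -0.77 among the lower. In Kd cells 2 rose, Cdkn1c at 0.65 and Cdkn2c at 0.57, where 7.55% of all genes rose. In +/+ cells against control, Cdkn1c was at 1.47 and Cdkn2b at 0.63, while Cdkn1a at 0.22 did not pass. KO/Kd against +/+ cells gave 2.67 for Cdkn1c, 1.76 for Cdkn2b and 1.86 for Cdkn1a. KO against +/+ cells gave -1.27 for Cdkn1c and 1.33 for Cdkn1a, while Cdkn2b at 0.18 did not pass. With arrays centred on their median 7 of the 15 rose in KO/Kd cells against control, where 27.3% of all genes did. Among 10 p53 target genes, which include Cdkn1a, 9 rose in KO/Kd cells and 7 in KO cells, with Mdm2 at 2.29 and 1.41, and 1 rose in Kd cells, Gadd45a at 0.27. The share of all genes that rose was 46.2% in KO/Kd cells, 19.6% in KO cells and 7.55% in Kd cells. Against +/+ cells 8 of the 10 rose in KO cells, where 12.8% of all genes did. The median over the 10 was 1.52 in KO/Kd cells and 0.83 in KO cells, against medians over all genes of 0.16 and 0.08.

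The partners that E2F and the pocket proteins use moved unevenly. Of 9 tested DP, MuvB and related genes, 3 rose and 4 fell in KO/Kd cells, where 46.2% of all genes rose and 19.3% fell, with Mybl2 (B-Myb) at -2.52, Lin9 at -1.19, Lin54 at -0.65 and the dimer partner Tfdp1 at -0.53 against Tfdp2 at 0.75, E2f6 at 0.37 and Lin37 at 0.30. With quantile normalization or centring 1 of them rose, where 32.3% and 27.3% of all genes did. In KO cells E2f6 rose by 0.60 while Mybl2 and Lin9 were lower, at -0.74 and -0.34, and in Kd cells 0 of 9 passed. The Lin9 call in KO cells was narrow (limma adjusted p = 0.0489), and the count of 2 lower genes ran from 1 to 4 over the alternatives. It was 1 without KO replicate 1 or 2, control replicate 1 or 2, any +/+ array, Kd replicate 1 or KO/Kd replicate 3. Of 13 tested corepressors that pocket proteins bind, a list that holds the deleted Hdac1 and the knocked down Hdac2, 6 rose and 5 fell in KO/Kd cells, where 46.2% of all genes rose and 19.3% fell. The share that rose was thus near that of all genes, and Hdac1 and Hdac2 are 2 of the 5 that fell. Besides the targeted genes, Suv39h2 was at -1.70 and Smarca4 at -0.47, while the subunits Arid4b, Arid4a and Sin3a of the Sin3 complex rose by 0.90, 0.88 and 0.78.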

How the data were processed

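The sample record gave 15 Affymetrix arrays of primary male mouse embryonic fibroblasts, in 5 groups of 3 taken from the sample titles. The authors deposited 1 linear intensity per probe set and array, for 45037 probe sets. How these intensities were summarised, background-corrected and scaled is not stated in the file or labels. Array medians ran from 29.1 to 30.7 in KO/Kd cells and from 24.1 to 25.1 in control cells, and were left as deposited. With 3 arrays in a group the standard error on the log2 scale had a median of 0.0868 over genes. It may reflect technical spread alone, because the labels do not state whether replicate arrays were separate cultures.

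Probe sets with 1 symbol (34945) were used, and those with several (932) or none (9160) left out. Each gene was represented by its brightest probe set on average. Genes above the 40th percentile of the array in 3 or more arrays were kept, which left 13375. Intensities were taken as log2(intensity + 16), which understates changes of dim genes. limma 3.58.1 in R 4.3.3 (lmFit, contrasts.fit, eBayes) modelled the 15 arrays together, with 1 mean for each group. Benjamini-Hochberg adjustment ran over all tested genes in each of the 9 comparisons, with a threshold of 0.05. Promoter windows were those of RefSeq on GRCm38.p6. Named genes were the 10 members, the lists of the pathway, and the 3 genes most like each member over the 15 arrays. The 10 genes and the lists were chosen with earlier results of these data known, and no list was tested as a set. The fit was tried on simulated data for KO against control only, with independent genes and arrays of equal quality. The counts of the 10 genes and of the lists were not tried in this way. Alternatives were other scaling, filters, pseudocount, probe set rule, array weights, variance prior, a replicate block, fits to the compared groups alone, and each array left out.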

Additional observations from a re-analysis of the deposited data

Results flagged for a closer look

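For 7 of the 10 genes the effect of Hdac1 deletion with tamoxifen differed between Hdac2 knockdown cells and cells with the scrambled micro-RNA, by the interaction in limma (n = 3 arrays in each of the 4 groups). The difference of the effects, on the log2 scale, was -2.50 for Rbl1, -1.90 for E2f7, -1.70 for E2f8, -0.45 for E2f1 and -0.45 for E2f4, and it was 1.47 for Rbl2 and 1.03 for Rb1. The all-gene share passing the same test was 42.9%. E2f4 was dim, and its interaction passed in 23 of 25 alternatives. The E2f4 call was lost without control replicate 1 or KO/Kd replicate 1.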

How the results depend on the processing

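Across 26 alternatives, 15 of which left out 1 array, 2130 of 2322 member values kept their direction and their side of the threshold, 83 lost a call and 66 gained one. Rbl1, Rbl2, Rb1, E2f1, E2f7 and E2f8 passed in all 26 in KO/Kd against control, against Kd and against KO and in the interaction. The signs of E2f3 and E2f5 in KO/Kd against control turned with the scaling, to -0.18 for E2f3 with centring, and for E2f5 to -0.0088 with quantile normalization and -0.11 with centring. Rb1 in Kd against control was 0.082 with the mean of probe sets. That setting gave 2 calls among the 10 genes in +/+ against control (4 in the main setting) and 1 in Kd against control (2). KO against +/+ gave 3 calls (5) without the filter and 3 with a pseudocount of 1. With an array left out, the calls ran from 0 to 2 in Kd against control, from 3 to 7 in KO against +/+, and from 2 to 5 in KO against control.

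Replicate numbers did not clearly pair the samples. Deviations from the group means correlated between -0.16 and 0.14 over 30 same-numbered pairs, 4 of them above 0.1. Over 60 differently numbered pairs they correlated between -0.12 and 0.19, 2 of them above 0.1. Of 15 arrays, 2 correlated best with their own number. A fit with a replicate block gave 3 calls of 10 in KO against +/+ and 7 in KO/Kd against control. The higher share of all calls in KO/Kd against control was 70.5%, 49.2% with quantile normalization and 36.2% with centring. In KO against control the 8 late cell cycle genes that fell were 16 with only the compared groups, 17 with quantile normalization, 19 with centring and 19 with array weights. The E2F targets lower in Kd cells, 0 in the main setting, numbered up to 4, with centring. Array weights also raised the share of all genes called to 37.2% (24.2% in the main setting) in KO and 18.3% (10.6%) in Kd against control. KO replicates 1 and 3 and KO/Kd replicate 2 had the lowest weights, 0.35, 0.351 and 0.434, and KO replicate 2 the highest, 3.05. The E2F targets lower in KO against +/+, 6 in the main setting, numbered 11 with only the compared groups, 10 with centring, 16 with array weights and 3 with a pseudocount of 1, and the 4 late genes 10 with only the compared groups and 12 with array weights. In +/+ against control the 6 E2F targets numbered 15, with only the compared groups, 14 with quantile normalization and 20 with centring, and the single late gene 5, 2 and 4, or 0 without probe sets ending in _x_at or _s_at. Weights were estimated gene by gene because the default estimate stopped without converging. How the deposited intensities were scaled was not stated, so the direction of small changes rests on that scaling. E2f2 was near the filter, and E2f4 was dim and rested on 1 probe set, which limits what can be seen of them.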
